A study of Brassica napus with 112 samples.

Results

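The 200 genes described here were the rapeseed genes whose RNA was most in excess in the spring hybrid Lumen over the spring hybrid Solar, in siliques and in seeds alike. Among 101040 genes, those with a mean value of at least 10 over the Lumen libraries of each tissue were ranked by the smaller of their silique and seed differences in mean log2(value + 0.5), Lumen minus Solar, and the 200 largest were taken. Genes of 5 stretches of chromosomes (the starts of A03 and C03, the ends of A05 and C05 and the first part of C09) were left out, so 11739 of the 12544 genes with that Lumen mean were ranked. The difference between the hybrids therefore chose the genes, and it is described below without any test. The working name for the set was genes near absent in Solar, but only 20 of the 200 had a Solar mean under 1 in both tissues and 51 had a Solar mean of at least 10 in at least one, so they are called Lumen-high genes.

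Rapeseed (Brassica napus) carries an A and a C subgenome, and most genes have a closely related partner, a homoeologue, in the other one. Cultivars of such a polyploid are known to differ by gene copies that are present in one and missing from another, by exchanges between homoeologous chromosomes, and by alleles of unequal expression. Each of these can leave a transcript low or unseen in one genetic background, and a read count alone does not tell them apart. A read that fits several near-identical copies is divided among them when reads are assigned to transcripts, which makes the level of any one copy uncertain.

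The libraries came from field plots of Lumen and Solar that were heated under polyethylene film or left as unmanipulated controls, and siliques and seeds were taken 14 and 7 days after flowering (DAF) in season 2 and season 1. Each tissue has 56 libraries, 28 of each hybrid, in 16 conditions of 4 libraries in season 2 and 3 in season 1. The heat treatment is the whole of the film enclosure, so temperature cannot be told apart from shading or other effects of the cover. Both are hybrid cultivars, and no parental lines were analysed here. Seeds and siliques were taken as labelled, since the identifiers carry no names with which to check a tissue by its markers. Per the study's methods each replicate was material from its own field plot, but the field layout is described with 3 replicates in both seasons and season 2 has 4 libraries per condition. The p-values below hold only as far as the libraries are independent.

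The deposited values are whole numbers that summed to between 890194 and 1658548 per library, and they were treated as TPM-like, that is scaled for transcript length and library size. Read counts cannot be had from them, and errors below come from the spread between libraries. Heated Lumen seeds at 7 DAF in season 2, replicate 4, stood apart, with 66990 genes at 0 against a median of 47882 in the Lumen seed libraries. It also had 25 Lumen-high genes at 0, so results that include it are given without it where they changed by over 1.5 times.

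The Lumen-high genes stood clear of Solar in every library when taken as a set, as the rule requires on average. Their median log2 value lay between 4.70 and 5.17 in the Lumen seed libraries, against 1.81 to 2.46 in the Solar seed libraries. In siliques it lay between 4.49 and 4.93 in Lumen, against 1.81 to 2.46 in Solar. The hybrids did not overlap on this scale in either tissue. A Lumen seed library had 0 to 25 of the 200 genes at 0 and a Solar seed library 25 to 40, while the counts in siliques were 0 to 8 in Lumen and 24 to 43 in Solar.

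**Figure D1:**
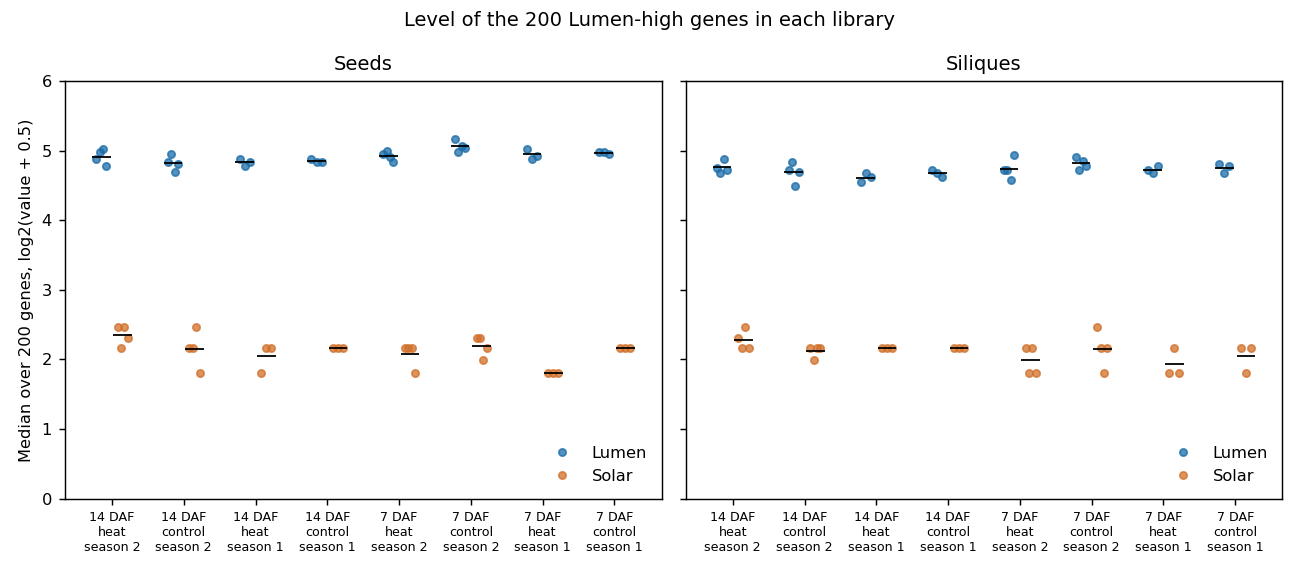
Median log2(value + 0.5) over the 200 Lumen-high genes in each library, with seeds on the left and siliques on the right, by sampling time, treatment and season. Points are libraries, black lines are the means of the 3 or 4 libraries of a condition, and every Lumen library lies between 4.49 and 5.17, above every Solar library at 1.81 to 2.46.

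Gene by gene, the excess of Lumen covered a wide range. The rule value, the smaller of the 2 tissue differences, ran from 1.52 to 6.59 on the log2 scale with a median of 2.33, while the ranked genes as a whole had a median of -0.07. It was at least 3 for 64 genes, at least 4 for 37 and at least 5 for 15. The median difference was 2.57 in seeds and 2.51 in siliques. At the edge of the set the last 3 genes inside had rule values of 1.523, 1.520 and 1.517, and the first 3 outside had 1.517, 1.516 and 1.506, so nothing in the values marks the limit.

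Most Lumen-high genes were lowly to moderately expressed in Solar rather than silent. Over the 200 genes the median of the mean values was 31.2 in Lumen seeds against 4.68 in Solar seeds, and 27.4 in Lumen siliques against 4.16 in Solar siliques. The Solar mean was under 1 in both tissues for 20 genes, under 2 for 38, under 5 for 90 and under 10 for 149. Only 2 genes were at 0 in all 56 Solar libraries.

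**Figure D2:**
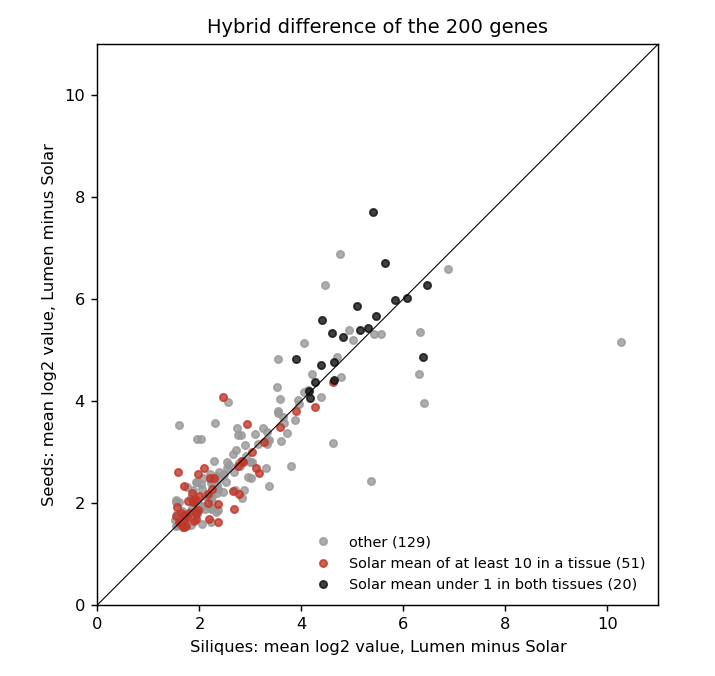
Difference in mean log2(value + 0.5) between Lumen and Solar for each of the 200 genes, in siliques on the horizontal axis and in seeds on the vertical axis, with a line where both are equal. The 20 genes with a Solar mean under 1 in both tissues lie at the upper end, and the 51 with a Solar mean of at least 10 in a tissue lie mostly at the lower end, near the limit of the rule at 1.52.

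Every Lumen library lay above every Solar library for 133 of the 200 genes in seeds, where the same held for 1.98% of all ranked genes, and for 103 in siliques, where it held for 1.39%. It held in both tissues for 88 genes and in neither for 52. Since the rule ranked genes by this contrast, the counts only describe how far the hybrids overlapped. The hybrids were also compared within each of the 16 combinations of tissue, treatment, age and season. In all 16 of these, 195 genes had a higher mean log2 value in Lumen, and 159 were over 1 log2 unit higher in each. The rule averaged the same libraries, so these counts too are only a description. The share among all ranked genes was not worked out. Within single conditions the median difference over the 200 genes lay between 2.46 and 2.77 in seeds and between 2.43 and 2.73 in siliques.

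The gene with the largest rule value was BnaA01g33650D on A01, which the files do not annotate. Its lowest, median and highest values were 159, 230.5 and 338 in Lumen seeds, against 0, 2 and 31 in Solar seeds. In siliques they were 74, 161 and 348 in Lumen, against 0, 1 and 19 in Solar. The hybrids did not overlap in either tissue, and the mean was 68.3-fold higher in Lumen seeds and 84.7-fold higher in Lumen siliques.

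Second in rank was BnaC02g46330D on C02, again without annotation, with 0, 55 and 84 in Lumen seeds against 0, 0 and 3 in Solar seeds. In siliques it had 21, 59 and 92 in Lumen against 0, 0 and 2 in Solar. The gene was listed at 0 in 25 of the 28 Solar seed libraries and in 22 of the 28 Solar silique libraries. Its seed values overlapped only through 1 Lumen library at 0, the seed library that stood apart.

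The 2 genes with the highest Lumen means were also expressed in Solar. The gene with the highest mean over the Lumen libraries of both tissues, BnaA04g08640D, had values of 30 to 308 in Lumen seeds (median 183) against 9 to 34 in Solar seeds (median 18.5), with a small overlap. In siliques the values were 761 to 6001 in Lumen (median 3370.5) against 157 to 705 in Solar (median 408.5), so the lowest Lumen library still lay above the highest Solar one. BnaCnng40400D, second by that mean, had 381 to 1402 in Lumen seeds (median 931.5) against 29 to 95 in Solar seeds (median 62.5). In siliques it had 466 to 1025 in Lumen (median 671.5) against 15 to 74 in Solar (median 33). Neither gene was at 0 in any library, and both are Lumen-high genes through a ratio of means of 8.32 to 18.8 in the 2 tissues.

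**Figure D3:**
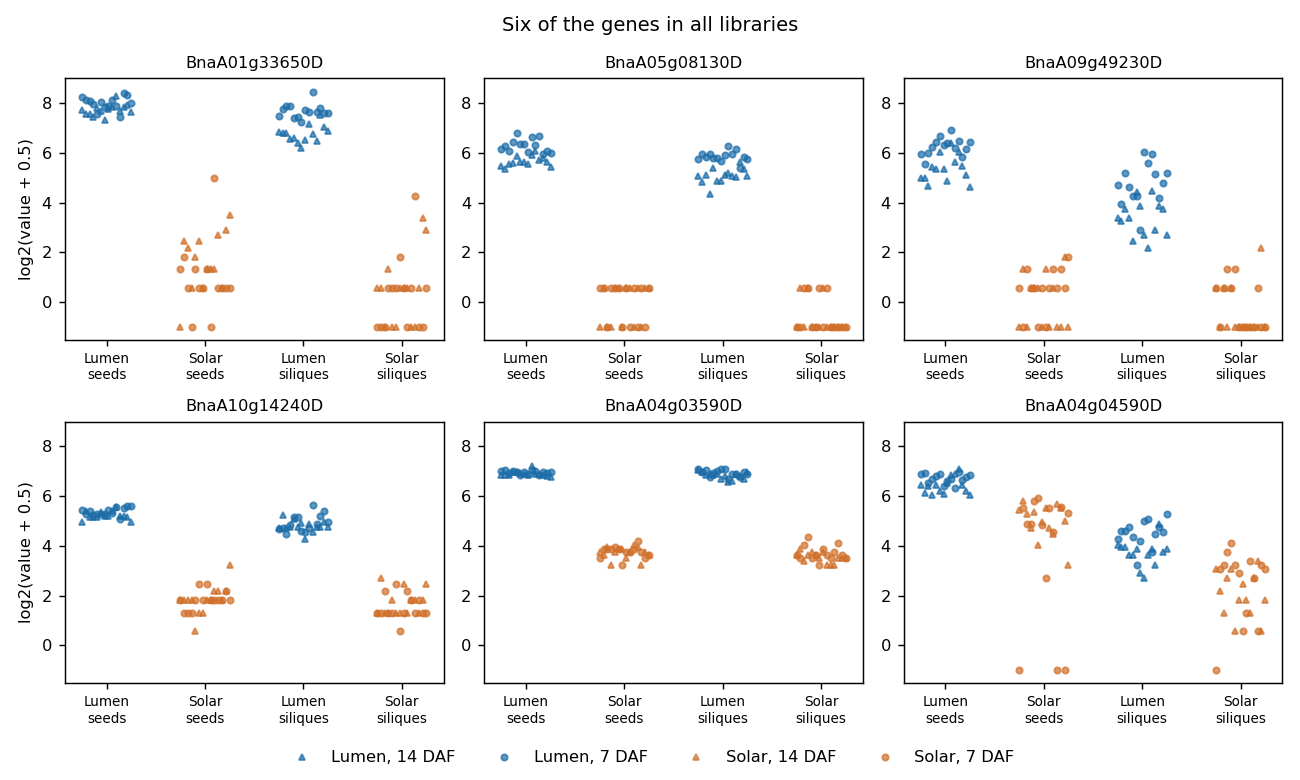
log2(value + 0.5) of 6 Lumen-high genes in all 56 seed and 56 silique libraries, by hybrid and tissue, with triangles for 14 DAF and circles for 7 DAF, and spread sideways for legibility. The 4 genes BnaA01g33650D, BnaA05g08130D, BnaA10g14240D and BnaA04g03590D show no overlap between the hybrids in either tissue, while BnaA04g04590D overlaps in siliques and is at 0 in 3 Solar seed libraries.

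Some genes that were silent in most Solar libraries were present in a few of them, and often in both tissues at once. A Solar median of 0 in both tissues was found for 22 Lumen-high genes, and 14 of these reached a value of 5 in no Solar library. For the other 8 genes, 21 of the 616 combinations of gene and replicate (28 Solar condition and replicate labels for each of the 22 genes) reached 5 in at least one tissue, and 8 of the 21 reached it in seeds and siliques with the same label. All 8 were from season 2, and 7 were from heated plots. This grouping was chosen after the values were seen, and the labels do not say whether seeds and siliques with the same number came from one plot.

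Heated Solar at 14 DAF in season 2 held the most of these combinations, with 3 genes in replicate 1 and 2 in replicate 3. One of the genes was BnaA03g50010D, to which the authors gave the gene ontology term U1 snRNP, the particle that recognises the start of an intron in splicing. In replicate 1 it had a value of 10 in seeds and 5 in siliques, and in replicate 3 it had 8 in seeds and 3 in siliques, against a Solar mean of 1.00 in seeds and 0.39 in siliques. The highest single value belonged to BnaA09g54870D, with 7 in seeds and 171 in siliques of heated Solar at 7 DAF in season 2, replicate 3, and 0 in each of the other 54 Solar libraries. The same replicate held the highest Solar values of BnaA01g33650D, 31 in seeds and 19 in siliques.

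The opposite pattern occurred in BnaA04g04590D, which was expressed in most Solar libraries. It had values of 65 to 137 in Lumen seeds against 0 to 60 in Solar seeds, where 3 libraries were at 0 and the other 25 lay between 6 and 60. These were control at 7 DAF in season 1, replicate 1, heat at 7 DAF in season 1, replicate 2, and heat at 7 DAF in season 2, replicate 4. The silique libraries with the same labels had 0, 1 and 1, against a median of 6 in the other 25 Solar silique libraries, of which 2 were also at 1 although seeds of those labels had 16 and 32. Solar replicates were thus unlike for this gene, and a mean over them does not describe each one. What set them apart was not tested.

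The files pair no identifier with a name or product, but the authors' enrichment lists give gene ontology terms for 34 of the Lumen-high genes. All 34 belong to one co-expression module that the study built on 7 DAF seeds of these same samples, and the lists were shortened, so the terms are not a sample of the 200 genes and a gene without a term may have one. The terms were sorted into 6 groups after the values had been seen. In the groups below, a change with age is the difference at 14 DAF minus 7 DAF in Lumen by limma's moderated test at a q-value (Benjamini-Hochberg adjusted over all genes tested) under 0.01. For comparison, 45 of all 200 Lumen-high genes fell with age in seeds and 58 in siliques, as did 19.6% and 22.9% of the ranked genes. Of the 34 genes with a term, 19 fell in seeds and 23 in siliques, so frequent falls are shared by the genes of this module. Since the module came from the same samples and the groups were made with the values known, the counts by group only describe the genes in them.

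The largest group, of 9 genes, carried terms for RNA binding, RNA helicase activity or ribonucleoprotein complexes, the machinery that splices, unwinds or packages RNA. Their median excess in Lumen was 2.27 in seeds and 2.14 in siliques on the log2 scale. Besides BnaA03g50010D, it held BnaA01g20630D, with means of 98.3 in Lumen seeds against 13.7 in Solar seeds, and of 91.2 in Lumen siliques against 11.9 in Solar siliques. Its libraries ranged from 51 to 166 in Lumen seeds against 6 to 26 in Solar seeds, without overlap. With age, 7 of the 9 fell in Lumen seeds and 9 of 9 fell in Lumen siliques, with median changes of -0.61 and -1.03.

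Terms for structural molecule activity, given to proteins that build assemblies such as ribosomes or the cytoskeleton, were listed for a group of 6 genes, and 3 of them have consecutive numbers on A05. BnaA05g08130D had 41 to 110 in Lumen seeds against 0 to 1 in Solar seeds, and 20 to 78 in Lumen siliques against 0 to 1 in Solar siliques. BnaA05g08110D had 76 to 223 in Lumen seeds against 1 to 8 in Solar seeds, and 31 to 151 in Lumen siliques against 0 to 5 in Solar siliques. Between them, BnaA05g08120D was also expressed in Solar, with 60 to 196 in Lumen seeds against 14 to 57 in Solar seeds. The fall with age in seeds was alike in the neighbours, -0.62, -0.48 and -0.58 for BnaA05g08130D, BnaA05g08110D and BnaA05g08120D. Of the group, 5 of 6 fell with age in Lumen seeds and 5 of 6 in Lumen siliques. The term was also listed for BnaA10g23570D and BnaA05g07210D, which were counted in the group for RNA and fell with age in both tissues.

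The group for chaperones and protein folding held 5 genes. BnaA08g26530D was placed in it by the term response to endoplasmic reticulum stress alone, without a term for folding. Listed for the chaperonin-containing T-complex, which folds actin and tubulin, were BnaA02g05110D, with 39 to 63 in Lumen seeds against 2 to 16 in Solar seeds, and BnaCnng75990D, with 6 to 56 in Lumen seeds against 0 to 13 in Solar seeds. The hybrids did not overlap for BnaA02g05110D, and they overlapped for BnaCnng75990D. They overlapped in both tissues for BnaA09g29090D, with terms for binding of misfolded and unfolded proteins. That gene had 19 to 63 in Lumen seeds against 3 to 23 in Solar seeds. Its silique values were 7 to 80 in Lumen against 1 to 23 in Solar. BnaA10g14240D, with terms for heat shock protein binding and protein folding, had 31 to 48 in Lumen seeds against 1 to 9 in Solar seeds and 19 to 50 in Lumen siliques against 1 to 6 in Solar siliques. None of the 5 passed the test for heat in either tissue at a q-value under 0.01. Very few of all genes tested passed for heat in these fits, as given below, so this does not set the 5 apart. The heat changes of BnaA10g14240D were 0.08 in seeds and 0.07 in siliques.

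The term protein heterodimerization activity, carried by histones among other proteins, was listed for 4 genes. All 4 were higher in Lumen seeds than in Lumen siliques, by 1.26 to 2.42 on the log2 scale. Higher in seeds were also 24 of the 34 genes with a term, 45.7% of all genes tested and 53.8% of the ranked genes. The split between tissues depends on the scale, as given below. BnaA09g49230D had 24 to 121 in Lumen seeds against 0 to 3 in Solar seeds, and 4 to 65 in Lumen siliques against 0 to 4 in Solar siliques. BnaA10g12870D had 45 to 223 in Lumen seeds against 1 to 10 in Solar seeds. The hybrids did not overlap in seeds for any of the 4 and overlapped in siliques for each of them, where 133 of all 200 genes did not overlap in seeds and 103 in siliques.

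Of the 7 genes with terms for metabolism or organelles, BnaA04g03590D was steady in both hybrids. Listed for the glycolytic process and isomerase activity, it had 109 to 150 in Lumen seeds against 9 to 18 in Solar seeds, and 94 to 137 in Lumen siliques against 9 to 20 in Solar siliques. Its means were 122 ± 8.24 in Lumen seeds against 13 ± 2.07 in Solar seeds (SD, n = 28 each), and it passed the test for neither age, season, heat nor tissue in Lumen. The 3 genes listed for vesicle-mediated transport, BnaA05g08000D, BnaA10g02890D and BnaA07g18390D, had no overlap between hybrids in either tissue, and 0 of the 3 passed the test for age in either tissue.

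By identifier, 117 of the Lumen-high genes lie on numbered chromosomes of the A subgenome and 56 on those of the C subgenome, with 13 and 14 more on A and C sequence that is not placed. They made up 2.34% of the ranked genes on A chromosomes and 1.04% of those on C chromosomes. The share was highest on A01 with 20 genes (4.02% of its ranked genes), followed by A03 with 25 (3.73%), A05 with 12 (3.67%) and A04 with 11 (3.31%). On C04 there were 18 (2.62%), while A08 and C08 held 1 each and C09 held 0. Part of C09, A03, A05, C03 and C05 had been left out by the rule, and the shares are over the genes that remained. The 200 genes chosen by the mirrored rule, Solar over Lumen, numbered 103 on A and 76 on C chromosomes. The shares are given as a description and were not tested.

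**Figure D4:**
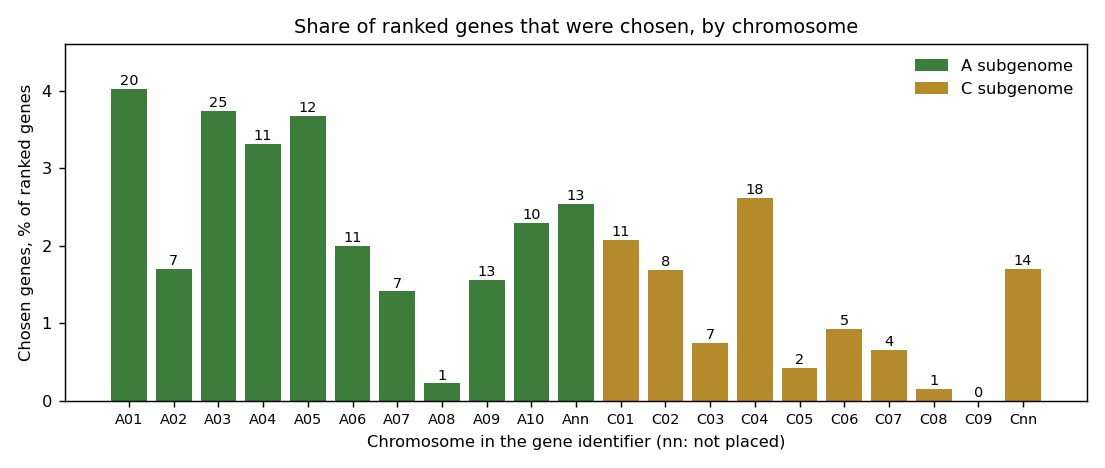
Lumen-high genes as a percent of the ranked genes on each chromosome, with green bars for the A and brown bars for the C subgenome, nn for sequence not placed, and the number of Lumen-high genes above each bar. The share is highest on A01 at 4.02% and 0 on C09, and C04 with 18 genes has the highest share among the C chromosomes.

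Most Lumen-high genes had no other Lumen-high gene next to them by identifier. Consecutive identifiers formed 7 pairs with 13 genes, among them the 3 genes on A05 and BnaA01g33650D, whose neighbour had a rule value of 1.88 against 6.59 for BnaA01g33650D itself. Of 60 other ranked genes next to a Lumen-high gene, 5 had a rule value above 1 log2 unit (8.33%), against 1.61% of all ranked genes outside the set. The median rule value of the 60 neighbours was 0.03. How many pairs chance would give was not worked out, and neighbours within the stretches left out by the rule could not be counted.

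Age, season and heat within Lumen were not used to choose the genes, but their Lumen level in each tissue was. Age, season and heat were tested in limma over the 28 Lumen libraries of each tissue, on log2(value + 0.5) with all interactions, and tissue in one fit over the 56 Lumen libraries. Age and heat set 14 libraries against 14 in a tissue, and season set 16 against 12. Each season was a single year with its own field layout, so a season change cannot be told apart from other differences between the years. All 200 genes entered each fit, beside 52962 genes tested in seeds, 54241 in siliques and 54625 over both. Since the rule asks for a Lumen mean of at least 10, the ranked genes are given as a second background of well-expressed genes. In all, 115 of the 200 genes passed for age, season or heat in at least one tissue, and 85 passed for none. This was 57.5% of the set, against 62.3% of the ranked genes and 45.3% of the genes tested in both tissues.

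Between 7 and 14 DAF more Lumen-high genes fell than rose in both tissues. In Lumen seeds 45 fell, where 9.03% of all genes tested and 19.6% of the ranked genes fell, and 21 rose, where 12.0% and 13.3% rose. In Lumen siliques 58 fell, where 12.4% of all genes and 22.9% of the ranked genes fell, and 24 rose, where 11.9% and 13.5% rose. Together 33.0% of the 200 genes passed in seeds, close to the 32.9% of ranked genes, and 41.0% passed in siliques against 36.4% of ranked genes. The change with age was thus about as frequent as in other well-expressed genes in seeds and slightly more frequent in siliques, and the difference in frequency was not tested.

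Of the 97 genes that passed in at least one tissue, 51 passed in both, with 38 lower at 14 DAF in both, 13 higher in both and 0 in opposite directions. Among the ranked genes 20.1% passed in both tissues, against 25.5% of the 200, and 4.79% of those went in opposite directions. The shared calls were 77.3% of the genes called in seeds and 62.2% of those called in siliques, where the ranked genes had 61.2% and 55.2%. The fits used different libraries, but seeds and siliques of a condition came from the same field experiment. With each replicate number left out in turn the count was 42 to 76 in seeds and 50 to 74 in siliques, lowest without replicate 2 in both. It was 33 in seeds in season 2 alone and 11 in siliques in season 1 alone.

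**Figure D5:**
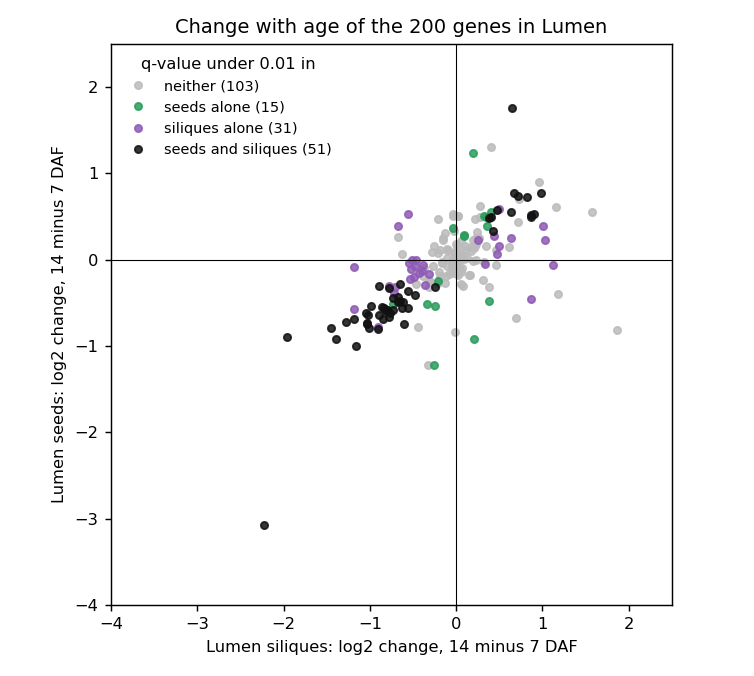
log2 change with age in Lumen (14 DAF minus 7 DAF) for the 200 genes, in siliques on the horizontal axis and in seeds on the vertical axis, coloured by the tissues in which the q-value was under 0.01. The 51 black points that passed in both tissues lie in the lower left (38) and upper right (13), and 103 genes passed in neither tissue.

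Among genes named by the rule (called, with a mean of at least 20 and one direction in every combination of the other factors), the largest rise in Lumen seeds was that of BnaAnng22640D, with 17 to 159 at 14 DAF (median 60.5) against 8 to 29 at 7 DAF (median 15). The ages overlapped, but the mean was higher at 14 DAF in all 4 combinations of heat and season, with a change of 1.75 ± 0.14 (SE) and a limma q-value of 2.0e-09. The Solar seed libraries had 0 to 3 at both ages. BnaCnng10370D had 36 to 138 in Lumen seeds at 14 DAF (median 65) against 27 to 78 at 7 DAF (median 35.5), a change of 0.77 ± 0.15 (SE). In Solar seeds it had 0 to 2.

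The largest falls in seeds that met the rule for named genes were in genes with a term. BnaA03g26700D, listed for structural molecule activity, had 72 to 177 in Lumen seeds at 14 DAF (median 108) against 140 to 322 at 7 DAF (median 210.5). Only the upper libraries at 14 DAF reached the lower ones at 7 DAF, and the change was -1.0 ± 0.14 (SE) with a limma q-value of 5.6e-06. BnaA09g49230D, listed for protein heterodimerization activity, had 24 to 85 at 14 DAF (median 41) against 47 to 121 at 7 DAF (median 78), a change of -0.92 ± 0.13 (SE). Solar seeds had 6 to 19 of BnaA03g26700D and 0 to 3 of BnaA09g49230D.

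By the same rule, the largest fall in Lumen siliques was that of BnaA02g04960D, with 21 to 384 at 14 DAF (median 115) against 139 to 1285 at 7 DAF (median 556), a change of -2.23 ± 0.40 (SE). The same gene was at 4 to 477 in Solar siliques and at 0 to 9 in Solar seeds. BnaA01g36280D, listed for the chloroplast envelope, had 17 to 140 in Lumen siliques at 14 DAF (median 41) against 75 to 316 at 7 DAF (median 161). Its change was -1.96 ± 0.25 (SE), with a limma q-value of 2.2e-06, and it also fell in Lumen seeds by 0.90 on the log2 scale. The largest rises under the rule were those of BnaA06g23560D, with 53 to 115 at 14 DAF against 15 to 87 at 7 DAF and a change of 1.12 ± 0.19 (SE), and of BnaA04g19010D, with 24 to 88 against 13 to 34 and a change of 1.03 ± 0.17 (SE). All of these changes had the same sign in all 4 combinations of heat and season.

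The signs and sizes of change in Solar were counted for the genes called in Lumen. For age, of the 66 genes called in Lumen seeds, 35 had a Solar mean of at least 5, and 30 of these had the same sign in Solar, with a median size of 0.33 in Solar against 0.56 in Lumen. Of the 82 called in Lumen siliques, 41 had such a Solar mean and 32 had the same sign, with a median size of 0.29 in Solar against 0.70 in Lumen. For season, 11 of 22 such seed genes had the same sign, with a median size of 0.27 in Solar against 0.42 in Lumen, and 5 of 5 silique genes did, with 0.41 in Solar against 0.38 in Lumen. The Lumen sizes come from genes picked for passing in Lumen, and the pseudocount shrinks changes at low values. Neither the sizes nor the shares were tested against each other.

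Between tissues, 146 of the 200 genes passed in Lumen, 102 higher in seeds and 44 higher in siliques, where 45.7% of all genes tested were higher in seeds and 30.8% higher in siliques. Among the ranked genes the shares were 53.8% and 26.2%. This split depends on the scale, since the median of all genes tested lay 0.25 log2 units higher in seeds as deposited. After median-ratio rescaling of the libraries, 55 genes were higher in seeds and 65 in siliques, and the median difference over the 200 genes was -0.01 against 0.29 as deposited. Directions of single genes are therefore given only for differences far beyond that shift. The rule asked for a minimum Lumen mean in each tissue and took the smaller tissue difference. This limits how far the tissues can differ among the chosen genes.

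In Lumen, BnaA04g04590D, listed for protein heterodimerization activity, had 65 to 137 in seeds (median 95) against 6 to 39 in siliques (median 15.5), without overlap. Its difference was 2.42 ± 0.10 (SE), seeds minus siliques. BnaA03g53860D had 63 to 201 in Lumen seeds (median 120.5) against 3 to 65 in Lumen siliques (median 22), a difference of 2.39 ± 0.13 (SE), and the Solar libraries of both tissues had 0 to 1. On the silique side, BnaA02g04960D had 0 to 49 in Lumen seeds (median 6) against 21 to 1285 in Lumen siliques (median 274.5), a difference of -5.30 ± 0.27 (SE). BnaA09g54870D had 3 to 56 in Lumen seeds (median 21) against 0 to 2381 in Lumen siliques (median 1204.5), a difference of -5.13 ± 0.43 (SE), although 1 of the 28 Lumen silique libraries was at 0.

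More Lumen-high genes passed for season in seeds than in siliques, as did more of all genes tested. In Lumen seeds 26 were higher and 15 lower in season 2 than in season 1, where 7.28% of all genes and 16% of the ranked genes were higher and 8.30% and 9.89% lower. In Lumen siliques 6 were higher and 7 lower, where 3.29% of all genes and 4.75% of the ranked genes were higher and 3.62% and 4.84% lower. Only 8 genes (4% of the 200, against 4.94% of the ranked genes) passed in both tissues, 2 higher and 6 lower in both. With each replicate number left out in turn the seed count was 13 to 55 and the silique count 1 to 10, lowest without replicate 2 in both, and without the seed library that stood apart the seed count was 60.

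BnaAnng22640D also had the largest rise in season 2 among genes named by the rule in Lumen seeds, with 11 to 159 in season 2 (median 38) against 8 to 40 in season 1 (median 16). Its mean at 14 DAF was 140.5 in heated and 78.8 in control plots of season 2, against 32.3 in heated and 20.7 in control plots of season 1. The season change was 1.34 ± 0.14 (SE), with a limma q-value of 7.1e-07. BnaA09g16630D had 16 to 60 in season 2 (median 31.5) against 12 to 23 in season 1 (median 18.5), a change of 0.89 ± 0.12 (SE).

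Among the genes named by the rule for season in Lumen seeds, 2 had seasons that did not overlap. Overlap of the seasons was not counted for the other Lumen-high genes. BnaC04g35720D had 7 to 22 in season 2 (median 14) against 25 to 42 in season 1 (median 33), a change of -1.26 ± 0.13 (SE), while all 28 Solar seed libraries were at 0. BnaCnng75990D, listed for the chaperonin-containing T-complex, had 6 to 36 in season 2 (median 25) against 43 to 56 in season 1 (median 48), a change of -1.02 ± 0.18 (SE) with a limma q-value of 2.5e-04. The value of 6 was that of the seed library that stood apart, the only Lumen seed library within the Solar range of 0 to 13, and without it the change was -0.87.

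Season differences in Lumen siliques were smaller. BnaAnng37870D had 65 to 133 in season 2 (median 96.5) against 55 to 88 in season 1 (median 72.5), a change of 0.38 ± 0.06 (SE). BnaC03g59080D had 17 to 34 (median 25.5) against 13 to 24 (median 17.5), a change of 0.46 ± 0.10 (SE). Lower in season 2 were BnaA03g53860D, with 3 to 65 (median 15.5) against 11 to 61 (median 31.5), and BnaA07g35330D, with 33 to 213 (median 89) against 67 to 243 (median 137). Their changes were -0.97 ± 0.24 (SE) and -0.72 ± 0.18 (SE), and the seasons overlapped for all 4 genes.

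Almost none of the Lumen-high genes passed for heat at this threshold, as was the case for genes at large in these fits of Lumen alone. In Lumen siliques 1 gene was lower and 0 were higher, where 0.253% of all genes tested and 0.400% of the ranked genes were lower and 0.214% and 0.375% higher. In Lumen seeds limma called 0 genes, where 0.051% of all genes and 0.0511% of the ranked genes were higher and 0.00189% and 0.00852% lower. At an unadjusted p-value under 0.05 there were 17 of the 200 genes in seeds (8.5%, against 9.13% of all genes tested) and 44 in siliques (22%, against 17.6% of all genes and 24.5% of the ranked genes). In simulated libraries the test found 62% of heat changes of 0.5 log2 units in seeds and 36% in siliques. For changes of 1 log2 unit it found 87% and 82%. The study modelled both hybrids together and reported more heat-regulated genes in both tissues, so few calls here do not mean little response.

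The silique gene was BnaA05g07240D, listed for RNA binding, with 28 to 183 in heated Lumen siliques (median 77) against 52 to 235 in control Lumen siliques (median 142). Heated and control libraries overlapped over most of their range. The change was -0.72 ± 0.13 (SE), lower under heat in all 4 combinations of age and season, with a limma q-value of 0.0037. By age and season the means in siliques were 43.5 under heat against 64.5 in control at 14 DAF in season 2, 58 against 75.3 at 14 DAF in season 1, 141 against 217 at 7 DAF in season 2 and 98.3 against 221 at 7 DAF in season 1. The call was lost without replicate 1, 2 or 3, in each season alone and with the replicate number as a block, with changes of -0.63 to -0.81. In Lumen seeds the heat change of this gene was -0.08, and the difference between the tissues did not pass, since 0 of the 200 genes passed for heat by tissue against 0.123% of all genes tested. At an unadjusted p-value under 0.05 there were 21 of the 200 genes, and 10.5% both of the set and of all genes tested.

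Interactions with age and season within a tissue were called by limma for 0 of the 200 genes. Among all genes tested, 0% in seeds and 0.0111% in siliques were called for heat by age, 0% in both tissues for heat by season, and 0.125% and 0.00553% for age by season. At an unadjusted p-value under 0.05 there were 24 genes in seeds and 18 in siliques for heat by age, where all genes tested had 8.44% and 9.37% and the set 12% and 9%. For heat by season there were 16 and 7 genes, or 8% and 3.5% against 4.41% and 7.29%, and for age by season 23 and 32, or 11.5% and 16% against 11.9% and 10.8%. Between tissues, 11 genes changed differently with age, 7 with a more positive and 4 with a more negative change in seeds, where 5.6% and 3.64% of all genes tested did so. The count was 18 without the seed library that stood apart and 4 to 14 with each replicate number left out, lowest without replicate 2. BnaA06g23560D was an example, with -0.06 in seeds against 1.12 in siliques, as was BnaA02g05110D of the chaperonin-containing T-complex, with -0.20 in seeds against -0.49 in siliques. BnaA01g33650D fell less in seeds than in siliques, -0.31 against -0.90.

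The season change differed between tissues for 6 genes, 3 in each direction, where 1.52% and 1.74% of all genes tested differed in the positive and negative direction. Without replicate 1 or 2 it was 1 gene. BnaAnng22640D changed by 1.34 in seeds against 0.20 in siliques. BnaA04g20040D, with a term for ribonucleoprotein complex binding, changed by -0.08 in seeds against 0.28 in siliques. BnaC04g06280D, listed for nucleobase-containing compound kinase activity, changed by -0.04 in seeds against 0.55 in siliques. In both of these genes the silique change passed on its own and the seed change did not.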

How the data were processed

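RNA-seq reads of a stranded library were assigned by the authors with kallisto 0.46 to rapeseed transcripts, and sleuth was used for their tests. The values they deposited are whole numbers per gene and library, and since the scaling is not stated they were used as a score of TPM-like kind, scaled by the authors. All columns of values belonged to the 56 seed and 56 silique libraries. The Lumen-high genes, their groups and the tests were chosen with earlier results of these data known.

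Values were transformed to log2(value + 0.5), which understates changes of low values. limma 3.58.1 in R 4.3.3 (with the package data.table, version 1.17.8) fitted each combination of age, heat and season as a mean in the Lumen libraries of a tissue, with contrasts for main effects and interactions and a trend in the prior variance. A gene was tested if 47% or more of the libraries had a value of 1 or more, and a q-value under 0.01 counted as called. The median residual SD was 0.433 in seeds and 0.401 in siliques. The code was tried on simulated libraries before use.

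Named were, per factor and tissue, at most 2 raised and 2 lowered called genes with the largest change, a mean of at least 20 and one direction in every combination, the 2 with the largest rule value and the 2 with the highest Lumen mean. Genes with a term, and genes in the paragraphs on Solar exceptions and on interactions, were named after their values were seen. Of the 200 identifiers, 5 were found in RefSeq, without a name. Alternatives were another pseudocount, filter, scaling, model, threshold or set of libraries. Summaries and figures used Python 3.11.15, pandas 2.3.3, numpy 2.4.6 and matplotlib 3.10.9.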

Additional observations from a re-analysis of the deposited data

Results flagged for a closer look

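In the median log2 value over the 200 Lumen-high genes, 2 libraries stood outside the other 3 of their condition. Solar control siliques at 14 DAF in season 2, replicate 2, had 1.99 against 2.17 in each of the other 3 libraries, and heated Solar seeds at 7 DAF in season 2, replicate 4, had 1.81 against 2.17. The test looks for a single library far from the rest and was applied to 16 groups of 4 libraries, where chance alone gives about 0.8 such cases (1 in 20 groups). Since the values are whole numbers, these medians move in steps and the other 3 libraries share one value.

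By the interaction with tissue in limma, 11 Lumen-high genes changed differently with age in seeds than in siliques of Lumen, and 6 changed differently with season, at a q-value under 0.01. The 11 include BnaC02g03720D, with -0.91 in seeds against 0.21 in siliques, and BnaA04g14230D, with 1.24 in seeds against 0.19 in siliques. BnaC02g03720D is also among the 6, with a season change of -0.78 in seeds against -0.01 in siliques.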

How the results depend on the processing

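Of the 200 Lumen-high genes, 109 were chosen again with a minimum Lumen mean of 20, 174 with a pseudocount of 5, 171 in each season alone, 180 in control libraries and 190 to 192 without each replicate number. Calls of heat in Lumen siliques (1) were 2 with both hybrids in one fit, with a pseudocount of 5 or with median-ratio rescaling, 4 with a mean value of at least 20, 7 at a q-value under 0.05, 0 in each season alone and 0 to 1 without each replicate. Heat in seeds (0) gave 1 at a q-value under 0.05, and age by season in seeds (0) gave 1 there and 1 with a pseudocount of 5. Age in siliques (82) gave 11 in season 1 alone and 50 to 74 without each replicate, and age in seeds (66) gave 43 with both hybrids, 33 in season 2 alone and 42 to 76 without each replicate. Season in siliques (13) gave 8 with both hybrids, 28 at a q-value under 0.05 and 1 to 10 without each replicate, and season in seeds (41) gave 23, 71 and 13 to 55. Age by tissue (11) gave 24 at a q-value under 0.05, 3 in season 1 alone, 18 without the seed library that stood apart and 4 to 14 without each replicate. Season by tissue (6) gave 1 with both hybrids, 14 at a q-value under 0.05 and 1 to 6 without each replicate. Tissue (146) gave 125 to 153 without each replicate. The cause of these shifts was not tested, apart from the fewer libraries and the looser threshold.

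Not every same-numbered pair correlated over 0.1, so the main fits took libraries as independent and the block was kept as an alternative. Pairing is not excluded by this. For seeds and siliques of a condition, deviations of same-numbered libraries correlated over 0.1 in 7 of 12 pairs of season 1 and 4 of 16 of season 2 (medians 0.10 and 0.06), against 0 of 24 and 0 of 48 pairs with different numbers (medians -0.05 and -0.02). This is a hint from the data, not from the design. For heat and control libraries of season 2, same-numbered medians were 0.05 in seeds and 0.07 in siliques. With different numbers they were -0.004 and -0.02. In season 1 same-numbered medians were -0.02 and -0.03, against 0.006 and 0.002 with different numbers. With the replicate number as a block, heat in siliques gave 0 calls, age 80 and season 12, in seeds age gave 65 and season 38, and over both tissues tissue gave 148, age by tissue 11 and season by tissue 6, and the block moved no other count by over 1.5 times. Of 290 values of single named genes under the alternatives, 256 stayed on their side of the threshold, 34 no longer passed it and 0 changed direction. The values are rounded and carry no depth, which limits genes with low values most.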
